A study of Mus musculus with 16 samples.

Results

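The lysyl oxidase family was followed in RNA sequencing of mouse heart ventricles. Its 5 members, Lox, Loxl1, Loxl2, Loxl3 and Loxl4, were taken by their Ensembl gene identifiers, which GENCODE release M21 on GRCm38 pairs with symbols, and they are 5 of the 55573 genes counted. All 5 passed the filter on low counts, which left 19955 genes for testing. The study asked how loss of Trbp, an RNA-binding partner of Dicer, changes the response of the heart to pressure overload. Pressure overload was produced by transverse aortic constriction (TAC), a ligature that narrows the aorta, and sham surgery left the ligature out. The 4 groups, control sham, control TAC, Trbp-cKO sham and Trbp-cKO TAC, held 4 hearts each, 16 in all.

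Every mouse was a male that carried the αMHC-MerCreMer transgene and floxed Trbp alleles (Trbp-fl/fl). At 4 weeks of age, daily injections of tamoxifen at 30 mg/kg were given over 5 days to Trbp-cKO mice and of corn oil to controls. Ventricles were collected about 8 weeks after surgery, when the mice were 16 weeks old. Tamoxifen was given to the Trbp-cKO groups alone, so that its own effect and that of the deletion cannot be told apart in these libraries. The αMHC promoter directs Cre to cardiomyocytes, and fibroblasts and other ventricular cells are not its target. Tarbp2, the gene of Trbp, had a mean of 32.2 ± 1.15 CPM (read counts relative to the effective library size; SD, n = 4) in control sham hearts and 9.53 ± 1.31 (SD, n = 4) in Trbp-cKO sham hearts. It had 27.0 ± 4.74 CPM in control TAC and 8.62 ± 1.10 CPM in Trbp-cKO TAC hearts (SD, n = 4 each).

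Lysyl oxidases are secreted copper enzymes that oxidize lysine side chains of collagen and elastin, and the aldehydes they make join neighboring chains into covalent cross-links. Lox and Loxl1 are made with a propeptide that proteases related to Bmp1 remove outside the cell, while Loxl2, Loxl3 and Loxl4 carry scavenger receptor domains in its place. In the overloaded heart these enzymes are known as part of fibrosis, and fibroblasts are regarded as a main source of them.

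The members share the copper-binding segment of the catalytic domain, which is shown here because its histidines hold the catalytic copper. In each of the 5 coding sequences of the GENCODE M21 annotation, 42 bases holding 4 histidine codons of this segment were found once, and in each of them an exon junction cut the stretch at the same base. Capitals mark the histidine codons, and the sequences are given for the 3 members with scavenger receptor domains, read 5′ to 3′ on the coding strand. The stretch of Loxl2 lies in exons 10 and 11 of 14 on the plus strand (GRCm38 chr14:69682316-69682338 and chr14:69689028-69689046). That of Loxl3 lies in exons 10 and 11 of 14 on the plus strand (chr6:83049995-83050017 and chr6:83050116-83050134), and that of Loxl4 in exons 11 and 12 of 15 on the minus strand (chr19:42599877-42599899 and chr19:42598798-42598816).
Loxl2: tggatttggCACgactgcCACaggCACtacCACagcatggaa
Loxl3: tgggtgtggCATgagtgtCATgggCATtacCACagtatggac
Loxl4: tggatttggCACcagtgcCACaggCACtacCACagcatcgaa
Loxl2 and Loxl4 were identical at 39 of these 42 bases, Loxl2 and Loxl3 at 32 and Loxl3 and Loxl4 at 31. Lox and Loxl1, the members with a propeptide, were identical at 41 of 42 bases. Over the aligned coding sequence, identity was 64.1% between Lox and Loxl1 and 62.7% to 64.6% among Loxl2, Loxl3 and Loxl4, and it was 56.0% to 58.1% between the 2 subfamilies.

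Similarity of this degree left Lox, Loxl1 and Loxl4 without a word of 100 bases in common with any other annotated transcript. Loxl2 (ENSMUSG00000034205, chr14:69609068-69695834, plus strand) was different, since 42.4% of its distinct words of 100 bases also occurred in the neighboring pseudogene Gm21451 on the same strand. Reads of Loxl2 and Gm21451 may therefore have been divided between them. Loxl2 also shares 301 exonic bases, 5.57% of its own, with the antisense gene Gm27177, whose group means were 1.68 to 2.23 CPM. Loxl3 (ENSMUSG00000000693, chr6:83034173-83052562, plus strand) overlaps Htra2 on the opposite strand over 535 exonic bases, 11.6% of its own. Whether the counting used strand was not given in the sources used here, so that reads from this overlap cannot be assigned; Htra2 was level across the groups, with means from 17.4 to 19.8 CPM. Lox (ENSMUSG00000024529, chromosome 18, minus strand) shares 30 exonic bases with an antisense transcript whose group means did not exceed 0.0849 CPM. Loxl1 (ENSMUSG00000032334, chr9:58287738-58313186) and Loxl4 (ENSMUSG00000025185, chr19:42593982-42612813), both on the minus strand, overlap no other annotated exon.

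Total counts per heart ran from 45166994 to 68274222. Replicates 1 and 2 of the control TAC group stood apart in all features that follow. Mitochondrial transcripts took 38.2% and 38.8% of their counts, against 18.2% to 26.3% in the other 14 hearts, and the summed CPM of 7 cardiomyocyte markers was 25594 and 20395 against 48583 and 48776 in replicates 3 and 4 of the same group. Replicate 4 of the Trbp-cKO TAC group had the next lowest cardiomyocyte sum, 31060 CPM. The libraries also differed in circadian genes: Dbp, an output gene of the clock, was higher in Trbp-cKO sham than in control sham hearts by 2.46 ± 0.29 on the log2 scale (SE; adjusted p = 0.000793). A fit without replicates 1 and 2 of control TAC was therefore added after the data were seen, and its values are given beside the comparisons that hold control TAC hearts.

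Levels are first compared between members per length, as CPM divided by the kilobases of the union of a gene's exons. In control sham hearts Loxl1 had the highest level, 11.6 ± 1.28 CPM per kb (SD, n = 4), followed by Loxl2 with 3.95 ± 0.414, Loxl3 with 1.66 ± 0.190, Lox with 1.21 ± 0.143 and Loxl4 with 0.149 ± 0.0247. This order held in 14 of 16 hearts. Loxl1 stood above Loxl2, Loxl3 above Lox and Lox above Loxl4 in all 16, whereas Loxl2 and Loxl3 changed places in replicate 2 of control TAC and replicate 4 of Trbp-cKO TAC, and in the latter heart Lox passed Loxl2 as well. Loxl2 and Loxl3 came closest in the Trbp-cKO TAC group, where the mean log2 ratio of Loxl2 to Loxl3 was 0.13 ± 0.50 (SD, n = 4), smaller than its spread.

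The summed level of the family was 18.6 ± 1.65 CPM per kb after sham surgery and 33.3 ± 11.7 after TAC in control hearts, and 19.6 ± 2.27 and 71.1 ± 38.5 in Trbp-cKO hearts (SD, n = 4 each). Its makeup moved with its size. Loxl1 made up 62.3% ± 1.99 of the sum in control sham hearts and 48.8% ± 6.33 in Trbp-cKO TAC hearts, while the share of Lox was 6.50% ± 0.341 and 15% ± 3.83 and that of Loxl3 was 8.98% ± 0.862 and 16.9% ± 4.26 (SD, n = 4 each). For Loxl1, the highest Trbp-cKO TAC share, 54.6%, lay below the lowest control sham share, 60.4%, and for Lox the order was the opposite, with 11.7% above 6.87%. Loxl4 never exceeded 1.92% of the sum.

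**Figure D1:**
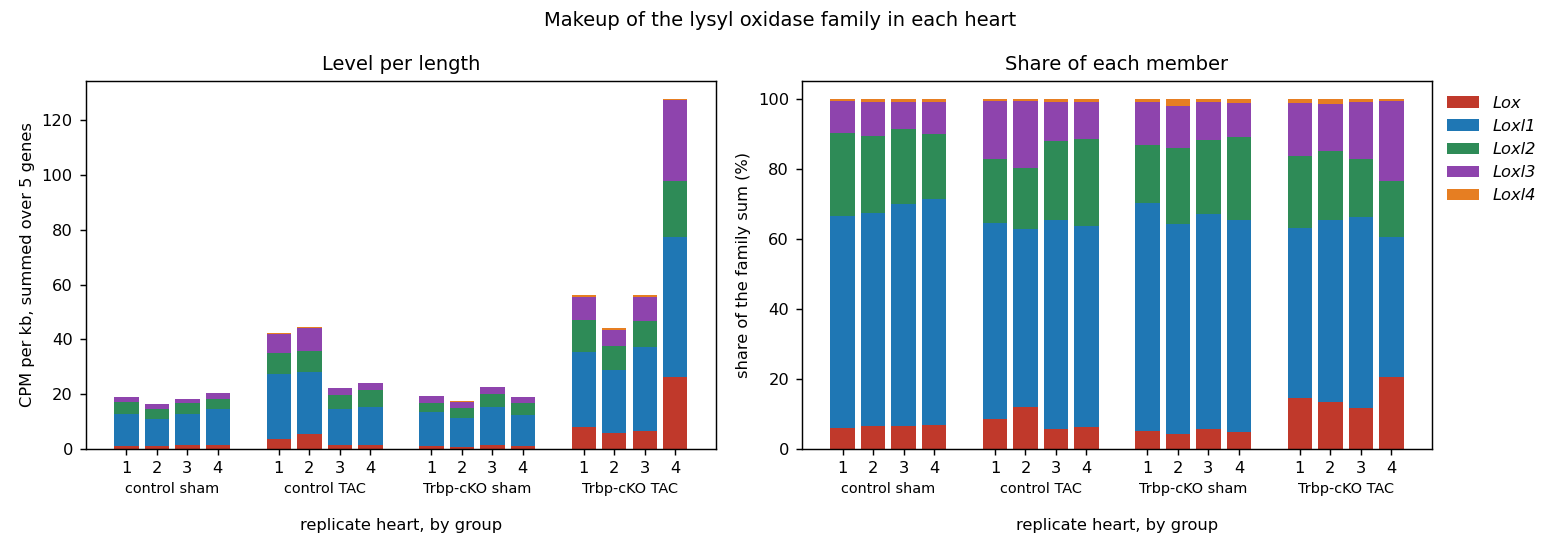
Level of the family in each of the 16 hearts. Left, stacked bars of CPM per kb for the 5 members. Right, the same bars as shares of the sum in percent. The tallest bar, 128 CPM per kb, is replicate 4 of Trbp-cKO TAC, and the shares of Lox and Loxl3 are largest in the same heart, at 20.5% and 23.1%.

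The clearest pattern across the conditions was that all 5 genes had their highest group mean in Trbp-cKO hearts under TAC. Compared with Trbp-cKO sham hearts, all 5 members rose by the study's 2 thresholds (adjusted p no higher than 0.05, log2 fold change no smaller than 0.8 in size), where 3.23% of all tested genes did so. In all 5, every Trbp-cKO TAC heart lay above every Trbp-cKO sham heart, which was so for 9.05% of tested genes. In these bulk libraries, more RNA of a gene per cell and more cells of the type that makes it cannot be told apart.

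Lox, which gives the family its name, had the largest fold change of the 5 in this comparison. Control sham replicates 1 to 4 had 5.54, 5.05, 5.80 and 6.68 CPM, and the control TAC replicates 17.1, 25.1, 6.16 and 7.16 CPM. Sham hearts with the deletion had 4.63, 3.49, 6.00 and 4.47 CPM, and TAC hearts with it had 38.8, 28.0, 31.4 and 125 CPM. The Trbp-cKO TAC hearts thus lay above all others, the sham groups overlapped, and the control TAC group fell into a high and a low pair, the low pair close to sham hearts. Between Trbp-cKO TAC and Trbp-cKO sham hearts Lox rose by 3.59 ± 0.52 on the log2 scale (SE, edgeR quasi-likelihood test, adjusted p = 0.000439). Without Trbp-cKO TAC replicate 4, the heart at 125 CPM, it still rose by 2.81 (adjusted p = 0.00031).

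Loxl1, which is best known for elastic fibers, was the most abundant member and changed by less. In the order of the replicates, control sham hearts had 38.1, 33, 38.3 and 43.3 CPM and control TAC hearts 78, 75, 43.8 and 46 CPM. Trbp-cKO hearts had 41.6, 34.2, 46.2 and 37.9 CPM after sham surgery and 89.8, 75.4, 101 and 169 CPM after TAC. Replicate 1 of control TAC lay inside the range of the Trbp-cKO TAC group and replicate 2 at its lower edge, and replicates 3 and 4 were just above the control sham hearts. Its rise from Trbp-cKO sham to Trbp-cKO TAC was 1.45 ± 0.24 (log2, SE; adjusted p = 0.00122).

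Loxl2, an enzyme that cross-links collagen IV and fibrillar collagens, had 24.6, 19.6, 21 and 20.3 CPM in control hearts after sham surgery and 42, 41.4, 27.3 and 32.2 CPM after TAC. The Trbp-cKO hearts had 17.4, 20.3, 25.7 and 24.4 CPM after sham surgery, and their TAC counterparts 62.8, 46.8, 50.4 and 110 CPM. Here the Trbp-cKO TAC and the control TAC hearts did not overlap with each other or with the control sham hearts. From Trbp-cKO sham to Trbp-cKO TAC, Loxl2 rose by 1.62 ± 0.24 (log2, SE; adjusted p = 0.000468). The pseudogene Gm21451, with which it may share reads, rose by 1.39 ± 0.31 in the same comparison (adjusted p = 0.00997), and with the counts of both summed the value was 1.58 (adjusted p = 0.00035).

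Loxl3, a member with activity on collagens and elastin, resembled Lox in its spread. Control replicates 1 to 4 had 7.90, 7.45, 6.58 and 8.67 CPM with sham and 32.2, 39.6, 11.3 and 11.8 CPM with TAC surgery. Replicates with the deletion had 11.1, 9.66, 11.4 and 8.54 CPM with sham and 39.0, 27.3, 41.6 and 136 CPM with TAC surgery. The high control TAC pair lay inside the range of the Trbp-cKO TAC group, and the low pair was close to the Trbp-cKO sham hearts. Loxl3 rose by 2.59 ± 0.48 from Trbp-cKO sham to Trbp-cKO TAC (log2, SE; adjusted p = 0.00294) and by 1.82 without Trbp-cKO TAC replicate 4 (adjusted p = 0.00464).

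Loxl4, whose copper-binding stretch is closest to that of Loxl2, was by far the scarcest. Control sham hearts had 0.590, 0.503, 0.681 and 0.740 CPM and control TAC hearts 1.04, 1.25, 0.944 and 0.965 CPM. For Trbp-cKO the values were 0.795, 1.40, 0.922 and 1.02 CPM after sham surgery and 2.69, 2.93, 2.49 and 2.72 CPM after TAC, and all 16 rest on counts of 32 to 188. The Trbp-cKO TAC hearts formed a narrow group above all others, with a coefficient of variation of 6.57% against 83.3% for Lox (4.65% and 16.9% without the highest heart of each), control TAC and Trbp-cKO sham hearts overlapped in the middle, and control sham hearts were the lowest. Loxl4 rose by 1.38 ± 0.18 from Trbp-cKO sham to Trbp-cKO TAC (log2, SE; adjusted p = 0.000206).

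Over 30 alternative settings the 5 rises from Trbp-cKO sham to Trbp-cKO TAC kept their direction, and 1 setting ended calls. Without Trbp-cKO TAC replicate 4 Loxl1 rose by 1.15 (adjusted p = 0.00186) and Loxl2 by 1.28 (adjusted p = 0.000253). With a clock score, the balance of circadian genes of opposite phase in each heart, as a covariate, 1.41% of all genes were called higher and of the members Loxl4 alone (1.48; adjusted p = 0.00665), while Lox differed by 2.75 (adjusted p = 0.0511), Loxl1 by 1.01 (adjusted p = 0.15), Loxl2 by 1.33 (adjusted p = 0.054) and Loxl3 by 1.52 (adjusted p = 0.309). These were the highest adjusted p of any setting for each member, and the lowest were 5.89e-13 for Lox and 2.92e-07 for Loxl3. The clock scores of the 2 groups did not overlap (-2.31 to -1.85 in Trbp-cKO sham and -1.01 to 2.44 in Trbp-cKO TAC hearts). The fit with the score therefore cannot separate it from TAC in this comparison.

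**Figure D2:**
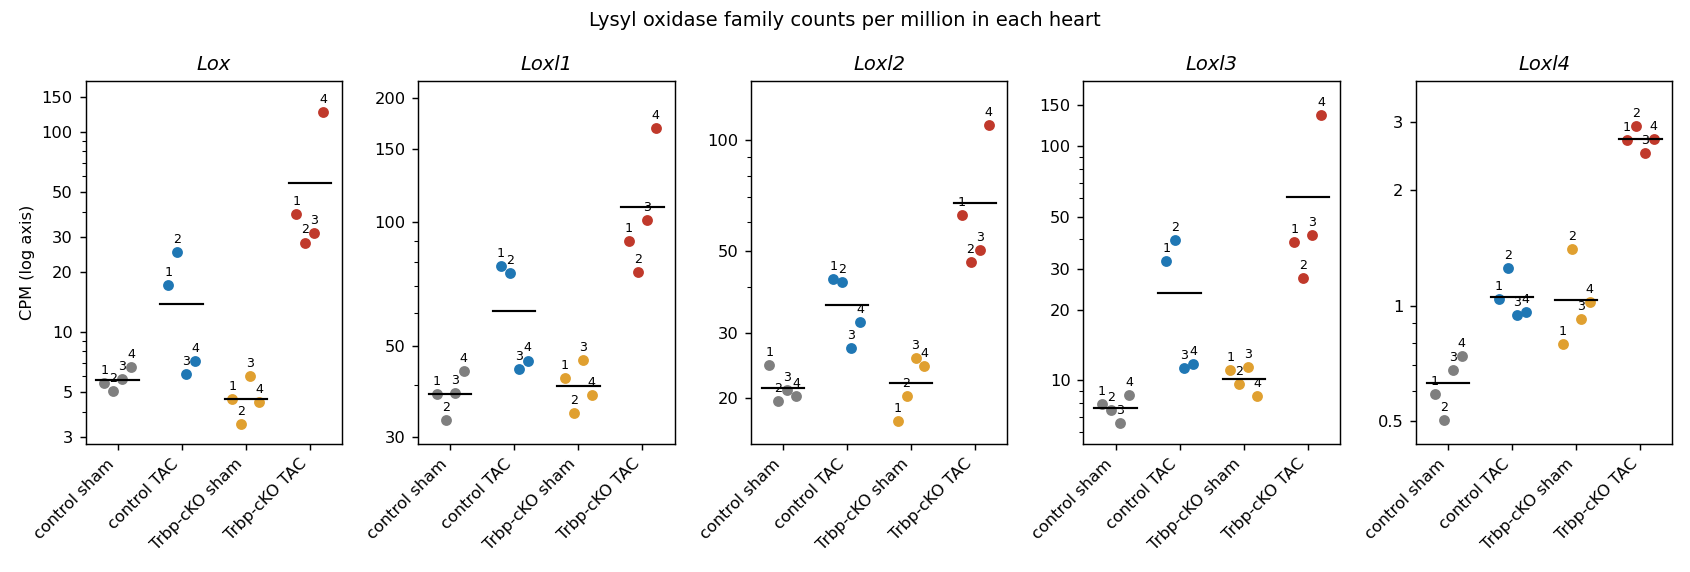
CPM of the 5 members in each heart, on log axes that differ between panels. Points are single hearts with their replicate number, and lines are the group means. The control TAC points of Lox, Loxl1 and Loxl3 split into a high pair and a low pair, and those of Loxl4 lie between 0.944 and 1.25 CPM.

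The next question was how hearts with and without the deletion differed under TAC. Of the 5 members, Lox, Loxl2 and Loxl4 were called higher with the deletion, against 1.55% of tested genes, and Loxl1 and Loxl3 were not. Lox was higher by 2.01 ± 0.49 on the log2 scale (SE; adjusted p = 0.0267), Loxl2 by 0.92 ± 0.23 (adjusted p = 0.0337) and Loxl4 by 1.37 ± 0.18 (adjusted p = 0.000566). In each of these 3 genes all 4 Trbp-cKO TAC hearts lay above all 4 control TAC hearts, as in 6.12% of tested genes, and the exact two-sided permutation test of the CPM gave 0.0286, the smallest p that groups of 4 allow. This p is fixed by the separation and adds nothing to it. For Loxl1 the difference was 0.84 ± 0.24 (SE; adjusted p = 0.0504), or 0.55 without Trbp-cKO TAC replicate 4 (adjusted p = 0.101), with replicate 2 of Trbp-cKO TAC between the replicates of the high control pair. For Loxl3 it was 1.36 ± 0.46 (SE; adjusted p = 0.0994), with 2 of 4 Trbp-cKO TAC hearts above every control TAC heart. Loxl1 was called without Trbp-cKO TAC replicate 2, with counts divided by 2 and without robust estimation. Of all tested genes, 1.39%, 1.73% and 1.58% were called higher in these fits.

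Single hearts decided part of these calls. Loxl2 lost its call in 10 of 30 alternative settings and Lox in 5. Loxl4 was the one call left when control TAC replicate 1, control TAC replicate 3 or Trbp-cKO TAC replicate 4 was left out. Of all tested genes, 0.97%, 1.44% and 1.77% were called higher in these fits, against 1.55% over all hearts. Without Trbp-cKO TAC replicate 4, Lox differed by 1.24 (adjusted p = 0.0552), Loxl2 by 0.58 (adjusted p = 0.0528) and Loxl3 by 0.60 (adjusted p = 0.282). Over all alternatives the adjusted p of Lox ran from 0.000317 to 0.211, that of Loxl2 from 0.00242 to 0.214 and that of Loxl3 from 0.0214 to 0.348. Loxl4 without replicate 4 differed by 1.37 (adjusted p = 0.00126), and over all 30 alternative settings its difference stayed between 1.31 and 1.5 with an adjusted p of at most 0.0169. With a term for the replicate number, or with only the 2 groups in the fit, Loxl4 was likewise the sole call, where 0.982% and 0.355% of all genes were called higher. With edgeR's exact test, the clock score, a fold threshold of 1, or control TAC replicate 4 or Trbp-cKO TAC replicate 1 left out, Loxl2 alone of the 3 lost its call. Scaling by library size alone and DESeq2 each called all 5, where they called 2.9% and 2.2% of all genes they tested higher. So did the fit without replicates 1 and 2 of control TAC, with 1.46% of all genes called higher, in which Lox differed by 3.05 (adjusted p = 0.00836), Loxl1 by 1.27 (adjusted p = 0.0123), Loxl2 by 1.17 (adjusted p = 0.0344) and Loxl3 by 2.39 (adjusted p = 0.0214).

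In control hearts, TAC against sham brought none of the 5 past both thresholds by edgeR's quasi-likelihood test, where 2.5% of tested genes rose. All 5 values were above 0 with an unadjusted p under 0.05, which held for 15.4% of tested genes, and edgeR's exact test called 2 members and DESeq2 called 1, with 3.12% and 3.37% of all genes they tested called higher. The log2 fold changes were 1.26 ± 0.48 for Lox (SE; adjusted p = 0.119), 0.67 ± 0.24 for Loxl1 (adjusted p = 0.0972) and 0.74 ± 0.23 for Loxl2 (adjusted p = 0.0682). They were 1.63 ± 0.47 for Loxl3 (adjusted p = 0.0508) and 0.74 ± 0.19 for Loxl4, which passed the p threshold (adjusted p = 0.034), as 4.09% of tested genes did upward, and fell short on the fold change. These values were lower without replicates 1 and 2 of control TAC. With both left out, Lox differed by 0.21, Loxl1 by 0.23, Loxl2 by 0.48, Loxl3 by 0.59 and Loxl4 by 0.60, with adjusted p from 0.327 for Loxl4 to 0.963 for Lox, and leaving out replicate 2 alone brought Lox to 0.81 (adjusted p = 0.397). Calls fell over all genes too: 0.418% of tested genes were called higher with both left out, and 1.03% with replicate 2 alone left out. The log2 fold changes were higher, with no call, when the clock score was in the fit: 1.91 for Lox (adjusted p = 0.112), 1.02 for Loxl1, 0.99 for Loxl2 and 2.44 for Loxl3 (adjusted p = 0.0594), while Loxl4 was at 0.65. In that fit 1.02% of tested genes were called higher. The clock scores of these 2 groups did not overlap either (1.24 to 2.74 in control sham and -0.725 to 0.0941 in control TAC hearts), so the score and TAC cannot be separated here. In Loxl1, Loxl2, Loxl3 and Loxl4, but not in Lox, all 4 control TAC hearts lay above all 4 control sham hearts, against 8.64% of tested genes. Calls appeared when a heart was left out: Loxl2 and Loxl3 without control TAC replicate 3, Loxl3 without control TAC replicate 4 or Trbp-cKO TAC replicate 2, and Lox and Loxl3 without Trbp-cKO TAC replicate 4. Of all tested genes, 4.37%, 5.08%, 2.25% and 3.23% were called higher in these fits, in that order.

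The deletion alone was examined in sham hearts. Between Trbp-cKO sham and control sham hearts no member was called by edgeR's quasi-likelihood test, its exact test or DESeq2. These called 0.511%, 1.75% and 1.01% of the genes they tested higher. By the quasi-likelihood test 1 member was higher at an unadjusted p under 0.05, as were 8.36% of tested genes. The log2 differences were -0.31 ± 0.48 for Lox, 0.07 ± 0.24 for Loxl1, 0.04 ± 0.23 for Loxl2 and 0.41 ± 0.46 for Loxl3 (SE), with adjusted p from 0.795 to 0.975. The 95% interval for Lox, -1.26 to 0.64, and that for Loxl3, -0.50 to 1.32, leave room for differences past the fold threshold in 1 direction, and those for Loxl1 (-0.40 to 0.53) and Loxl2 (-0.42 to 0.49) lie inside it. Loxl4 was the member with the smallest p: it was higher by 0.72 ± 0.19 (SE; adjusted p = 0.0694), and all 4 Trbp-cKO sham hearts lay above all 4 control sham hearts, as in 7.74% of tested genes. Scaling by library size alone called Loxl4 here, with 1.03% of all genes called higher. The circadian genes differed between these same groups, whose clock scores did not overlap (1.24 to 2.74 in control sham and -2.31 to -1.85 in Trbp-cKO sham hearts). With the score in the fit the difference of Loxl4 was 0.57 ± 0.36 (SE; adjusted p = 0.624, the highest of its alternatives, with 0.0218 the lowest). In the same fit Loxl3 differed by 2.00 ± 0.94, Lox by 0.96 ± 1.02, with its sign turned, Loxl1 by 0.72 ± 0.46 and Loxl2 by 0.49 ± 0.48 (SE; adjusted p from 0.572 to 0.728), so that the size of the differences of the family between the sham groups depended on this term.

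Whether the deletion changed the effect of TAC was tested by the interaction, the TAC response of Trbp-cKO hearts less that of control hearts. No member passed by edgeR, where 0.446% of tested genes did with a positive sign, 4 members had an unadjusted p under 0.05, a share of 7.18% among all genes, and DESeq2, which called 1.43% of the genes it tested with a positive sign, called Lox. The log2 estimates were 2.32 ± 0.68 for Lox (SE; adjusted p = 0.116), 0.78 ± 0.33 for Loxl1 (adjusted p = 0.278) and 0.88 ± 0.33 for Loxl2 (adjusted p = 0.213). For Loxl3 it was 0.96 ± 0.65 (adjusted p = 0.513) and for Loxl4 0.64 ± 0.26 (adjusted p = 0.254). Without Trbp-cKO TAC replicate 4 the estimates were 1.55 for Lox, 0.48 for Loxl1, 0.54 for Loxl2, 0.19 for Loxl3 and 0.64 for Loxl4, with adjusted p from 0.117 to 0.843. Without replicates 1 and 2 of control TAC they were 3.37 for Lox, which was then called (adjusted p = 0.0385; 0.375% of all genes), 1.21 for Loxl1, 1.14 for Loxl2, 1.99 for Loxl3 and 0.77 for Loxl4. With the clock score in the fit they were 0.85 ± 1.2 for Lox, -0.004 ± 0.57 for Loxl1, 0.34 ± 0.59 for Loxl2, -0.92 ± 1.13 for Loxl3 and 0.83 ± 0.45 for Loxl4 (SE; adjusted p from 0.455 to 0.998). A larger response to TAC in Trbp-cKO than in control hearts was thus not established for any member by edgeR over all hearts; without the score all 5 estimates were positive, as were 48.8% of all.

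**Figure D3:**
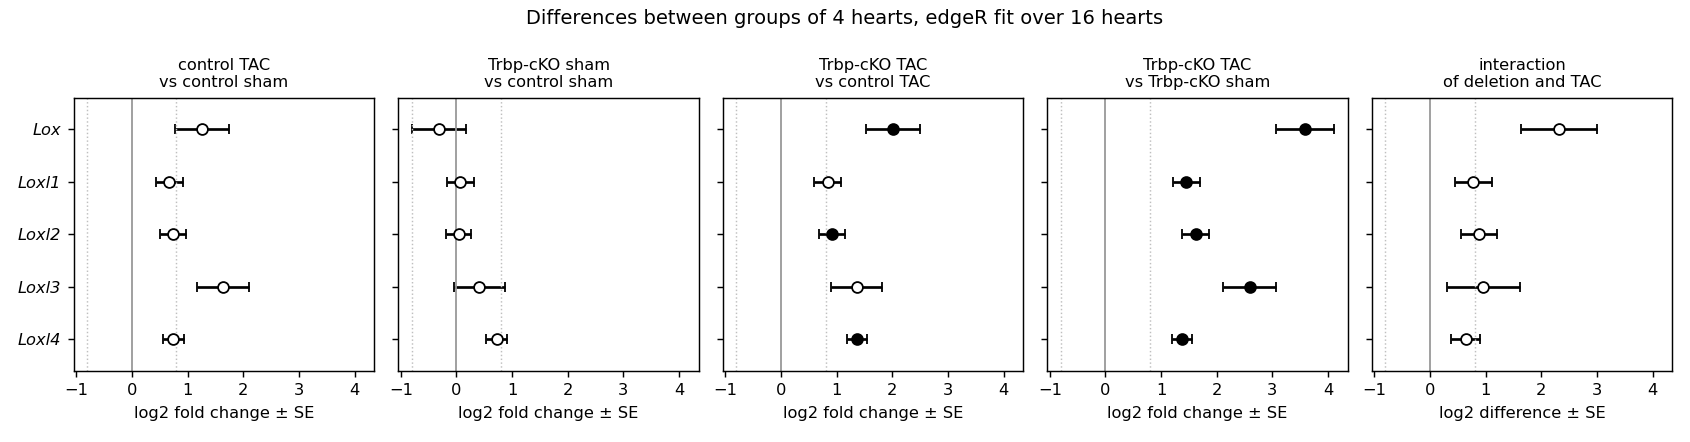
Log2 fold changes of the 5 members in 4 comparisons and the interaction. Points are estimates of the edgeR fit over 16 hearts, bars are 1 SE, filled points passed both thresholds and dotted lines mark a log2 fold change of 0.8 either way. All 5 are filled for Trbp-cKO TAC against Trbp-cKO sham, and 3 for Trbp-cKO TAC against control TAC.

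Within a group, the spread between hearts was shared by 4 of the members. The deviations of log2 CPM from the group means correlated at r = 0.812 to 0.963 among Lox, Loxl1, Loxl2 and Loxl3 over the 16 hearts, and at r = 0.0994 to 0.18 between Loxl4 and each of them. These are descriptions over hearts that share library, depth and composition. Loxl4 rests on 32 to 188 counts per heart, and counting error at such counts can lower its r with the others. The part of counting error was not tested. In control TAC, Lox deviated by 0.54, 1.09, -0.93 and -0.71 in replicates 1 to 4 and Loxl3 by 0.67, 0.96, -0.84 and -0.78. Loxl4 deviated by -0.01, 0.26, -0.14 and -0.11 in the same hearts. In Trbp-cKO TAC replicate 4, Lox and Loxl3 each stood 1.46 above their group mean, Loxl2 0.79, Loxl1 0.71 and Loxl4 0.01. The pooled SD within groups was 0.72 for Lox, 0.70 for Loxl3, 0.36 for Loxl1, 0.35 for Loxl2 and 0.23 for Loxl4 (log2 CPM, 12 degrees of freedom).

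**Figure D4:**
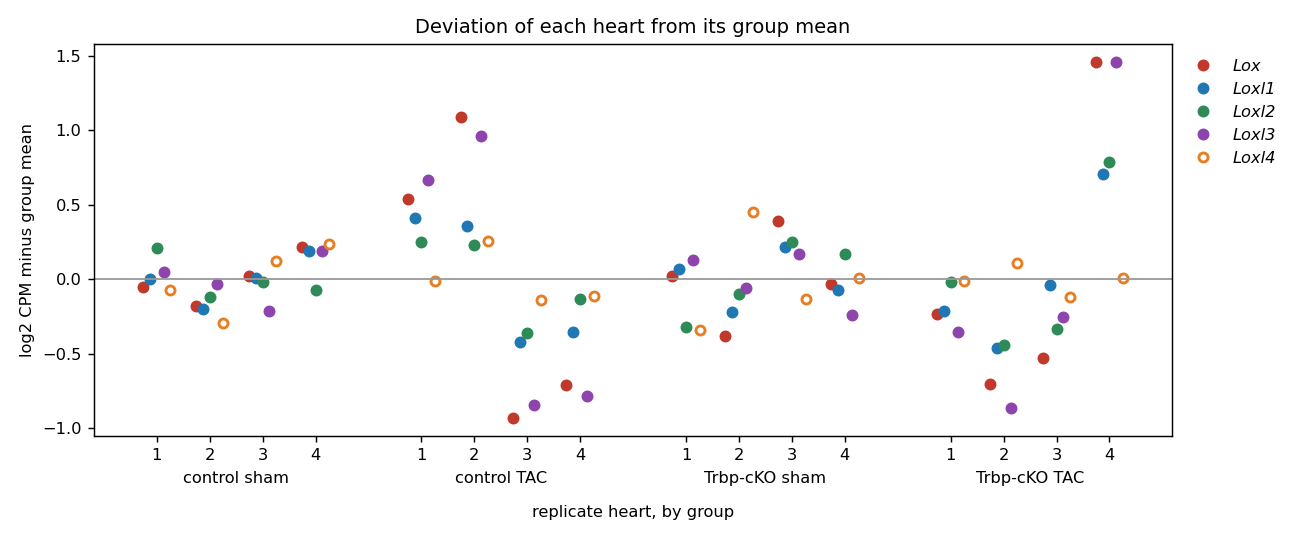
Log2 CPM of each member minus the mean of its group, for 16 hearts. Filled points are Lox, Loxl1, Loxl2 and Loxl3 and open points are Loxl4. The filled points move together in the TAC groups, up to 1.46 in Trbp-cKO TAC replicate 4, where the open point is at 0.01.

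Cell type markers moved with the same hearts. The summed CPM of 7 markers of activated fibroblasts (Postn, Cthrc1, Comp, Cilp, Fap, Acta2 and Ddah1) was 737, 844, 326 and 409 in control TAC replicates 1 to 4 and 1744, 1160, 1804 and 2701 in Trbp-cKO TAC replicates 1 to 4. It ranged from 220 to 369 in control sham and from 492 to 739 in Trbp-cKO sham hearts, and 5 of the 7 rose from control TAC to Trbp-cKO TAC, against 1.55% of tested genes, with 6 called without replicates 1 and 2 of control TAC and 3 without Trbp-cKO TAC replicate 4. In these 2 fits 1.46% and 1.77% of tested genes were called higher, in that order. The 7 markers of resident fibroblasts (Pdgfra, Tcf21, Dcn and others) summed to 1638 to 2279 CPM in control TAC and to 1447 to 2254 in Trbp-cKO TAC hearts, with none called between them. Endothelial markers summed to 1275, 1306, 703 and 672 CPM in control TAC replicates 1 to 4, and to 988 in Trbp-cKO TAC replicate 4 against 550 to 682 in the others. The 4 mesothelial markers summed to 15.9 CPM in Trbp-cKO TAC replicate 4 and to 5.66 to 6.64 CPM in the other 3 hearts of its group, and to 8.78, 13.9, 9.77 and 10.4 CPM in control TAC replicates 1 to 4. Thus the TAC hearts with high Lox, Loxl1, Loxl2 and Loxl3 within their group also had high fibroblast and endothelial and low cardiomyocyte sums, and replicate 4 of Trbp-cKO TAC a high mesothelial sum; the part of these in the family's values was not tested. The 4 atrial markers were scarce and, like the family, highest in Trbp-cKO TAC hearts: they summed to 1.85 to 2.21 CPM in control sham, 1.21 to 2.31 in control TAC, 2.1 to 2.95 in Trbp-cKO sham and 4.42 to 7.88 in Trbp-cKO TAC hearts, and 1 of the 2 that could be tested, Myl4, was called higher between the TAC groups. Their part in the family's values was not tested. Adipocyte markers summed to no more than 0.664 CPM in any heart, and cardiomyocyte markers to 20395 to 51784 CPM. Smooth muscle markers summed to 204 to 216 CPM in control TAC and 196 to 235 in Trbp-cKO TAC hearts. Of these 5, 1 was called higher between the TAC groups (0 without Trbp-cKO TAC replicate 4). From Trbp-cKO sham to Trbp-cKO TAC, 2 of them and 5 of the 7 activated fibroblast markers were called, against 3.23% of tested genes. Macrophage markers had no call in either comparison. The part of these in the family's values was not tested.

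By likeness over the 16 hearts, measured as Pearson's r of log2 CPM with each of 12959 genes of mean log2 CPM of at least 1, Lox, Loxl1 and Loxl3 each had other members among their nearest 3 genes, and Loxl2 and Loxl4 did not. Closest to Lox were Loxl1 (0.981), Ltbp3, a latent TGF-β binding protein (0.975), and the collagen gene Col5a2 (0.968), and closest to Loxl1 were Loxl3 (0.982), Lox (0.981) and Lhfp (0.979). The genes nearest Loxl2 were Col5a2 (0.987), Ltbp3 (0.984) and Col5a1 (0.972), and those nearest Loxl3 were the receptor gene Fgfr1 (0.984), Loxl1 (0.982) and Mgp, the gene of matrix Gla protein (0.981). Loxl4 was most like Limk2, a kinase that acts on cofilin (0.962), Synm, which encodes the muscle intermediate filament protein synemin (0.961), and Anxa7 (0.953). Its r with the other 4 over all hearts was 0.806 to 0.825.

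Genes of the pathway were followed in 5 lists. Of 10 substrate genes, the fibrillar collagens and elastin, 4 rose from control TAC to Trbp-cKO TAC, where 1.55% of all tested genes did: Col1a1 by 1.00 ± 0.21 (log2, SE; adjusted p = 0.0129), Col1a2 by 0.92 ± 0.20 (adjusted p = 0.015), Col5a2 by 1.19 ± 0.26 (adjusted p = 0.0174) and Col11a1 by 2.22 ± 0.51 (adjusted p = 0.0216). Their list had a median log2 fold change of 0.76, where the median of all tested genes was between -0.01 and 0.02 in each comparison. From Trbp-cKO sham to Trbp-cKO TAC 7 of the 10 rose against 3.23% of tested genes, elastin (Eln) among them by 2.25 ± 0.43 (adjusted p = 0.00315), and from control sham to control TAC 5 rose against 2.5%, or 3 without control sham replicate 1 or 3 or control TAC replicate 1 or 2, and 0 without both of the latter. With these hearts left out, 1.49%, 1.13%, 0.945%, 1.03% and 0.418% of tested genes were called higher, in that order. Without Trbp-cKO TAC replicate 4, Col11a1 was the 1 substrate gene called between the TAC groups, and without replicates 1 and 2 of control TAC 5 were called. Of all tested genes, 1.77% and 1.46% were called higher in these fits, in that order.

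Among 14 genes for the processing and tethering of lysyl oxidases, 3, Fn1, Fmod and Postn, rose from control TAC to Trbp-cKO TAC, again against 1.55% of tested genes. Fn1, the fibronectin that binds Lox, rose by 1.07 ± 0.15 (log2, SE; adjusted p = 0.000779), Fmod, which encodes the collagen-binding fibromodulin, by 2.81 ± 0.63 (adjusted p = 0.0187) and Postn, the gene of periostin, by 1.36 ± 0.34 (adjusted p = 0.0304). Postn is also in the list of activated fibroblast markers. The count of 3 became 5 without Trbp-cKO TAC replicate 2, with Fbn1 and Mfap4 added, and Postn was not called when Trbp-cKO TAC replicate 1 or 4 or control TAC replicate 3 or 4 was left out. Without both replicates 1 and 2 of control TAC, 9 genes of the list were called, and over all hearts edgeR's exact test called 2 and DESeq2 called 6. Of all genes tested, 1.46%, 1.37% and 2.2% were called higher in these settings. Bmp1, the protease that activates Lox, had a log2 difference of -0.26 ± 0.20 (adjusted p = 0.485). From Trbp-cKO sham to Trbp-cKO TAC 10 of the 14 rose, against 3.23% of tested genes, and Tll2, a protease related to Bmp1, fell by 3.07 ± 0.86 on the log2 scale (adjusted p = 0.0341), a direction in which 2.34% of tested genes passed. From control sham to control TAC 5 of the 14 rose, against 2.5% of tested genes (4 to 8 with a heart left out, against 0.945% to 5.08%), and 13 of 14 had values above 0. Those that rose were Postn (2.92 ± 0.36; adjusted p = 0.000581), the microfibril genes Mfap4 (2.38 ± 0.31; adjusted p = 0.000939) and Mfap5 (2.16 ± 0.35; adjusted p = 0.00406), Fmod (4.00 ± 0.70; adjusted p = 0.00581) and Pcolce, the gene of a procollagen proteinase enhancer (0.94 ± 0.20; adjusted p = 0.0141). Of these, Pcolce was not called without control TAC replicate 1 or 2, nor Fmod and Pcolce without both. In these 3 fits 0.945%, 1.03% and 0.418% of tested genes were called higher, in that order. Thbs1, the gene of thrombospondin 1, was the exception and fell by 2.64 ± 0.50 after TAC in control hearts (adjusted p = 0.00811; 1.25% of tested genes fell), a call that was lost without replicates 1 and 2 of control TAC, and rose by 2.66 ± 0.50 after TAC in Trbp-cKO hearts (adjusted p = 0.00299). Without these 2 control TAC hearts, 121 of 20821 tested genes were called in either direction between the control groups, against 748 of 19955 over all hearts. Thbs1 passed the interaction with 5.30 ± 0.71 (adjusted p = 0.00273; 0.446% of tested genes). With the clock score in the fit, 1 gene in all passed the interaction, 0.00501% of those tested. Of Thbs1 and the inducer genes Ccn2 and Tgfb2 named below, at most 1 can therefore have kept this call. Thbs1 was also lower in Trbp-cKO sham than in control sham hearts, with a log2 change of -3.94 ± 0.53 (adjusted p = 0.00247; 0.456% fell). With the clock score in the fit no tested gene was called between the sham groups, so this call was lost.

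The next list held 11 genes: lysyl hydroxylases and the glycosyltransferases that follow them (Plod1 to Plod3, Colgalt1 and Colgalt2), their partners in collagen folding (Fkbp10, Ppib and Serpinh1), and transglutaminases (Tgm1, Tgm2 and F13a1). None of them was called between the TAC groups by edgeR's quasi-likelihood test, its exact test or DESeq2, although 4 had an unadjusted p under 0.05 in either direction, as did 21.4% of tested genes. The list's median log2 fold change was 0.03. Plod2, the lysyl hydroxylase of collagen telopeptides, had a value of 0.53 ± 0.18 (SE; adjusted p = 0.0987), and Tgm2, a transglutaminase, of 0.73 ± 0.18, past the p threshold alone (adjusted p = 0.028); Tgm2 was called when control TAC replicate 4 was left out. From Trbp-cKO sham to Trbp-cKO TAC 3 of the 11 were higher past the p threshold, against 6.02% of tested genes. Of these Tgm2 also passed the fold threshold, rising by 0.86 ± 0.18 (adjusted p = 0.00565), and Plod2 (0.78 ± 0.18; adjusted p = 0.012) and the lysyl hydroxylase Plod3 (0.42 ± 0.11; adjusted p = 0.0259) did not. Without Trbp-cKO TAC replicate 2 Plod2 was called in place of Tgm2, and without Trbp-cKO TAC replicate 3 or Trbp-cKO sham replicate 2 both were.

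The list on copper supply held 13 genes of copper transport and of other secreted copper enzymes. None was called in any comparison by these tools, and 3 had an unadjusted p under 0.05 between the TAC groups, where 21.4% of tested genes did. The gene past the p threshold alone was Cp, the gene of the plasma copper protein ceruloplasmin, which was higher by 0.65 ± 0.13 in Trbp-cKO TAC than in Trbp-cKO sham hearts (log2, SE; adjusted p = 0.00416). Sod3, the extracellular superoxide dismutase, differed by 0.76 ± 0.22 between the sham groups (adjusted p = 0.11), and it was called between the TAC groups when replicates 1 and 2 of control TAC were left out. Atp7a, the pump that loads copper onto lysyl oxidases in the secretory pathway, differed by 0.32 ± 0.19 (log2, SE; adjusted p = 0.338), and the copper importer Slc31a1 by 0.47 ± 0.22 (adjusted p = 0.228).

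The inducer list held 14 genes, inducers of lysyl oxidases known from other tissues and genes of the TGF-β pathway that are not inducers themselves, such as Ltbp2. Of the 14, 4 rose from control TAC to Trbp-cKO TAC, against 1.55% of tested genes. Neither a single omitted heart nor leaving out replicates 1 and 2 of control TAC altered this count. Those that rose were the growth factor genes Tgfb2 (1.39 ± 0.15, log2, SE; adjusted p = 0.000119) and Tgfb3 (1.72 ± 0.24; adjusted p = 0.000757), Ccn2, the gene of connective tissue growth factor (1.91 ± 0.24; adjusted p = 0.000334), and Ltbp2, a relative of Ltbp3 (1.62 ± 0.36; adjusted p = 0.0191). Tgfb1 differed by 0.08 ± 0.26 (adjusted p = 0.886). Ccn2 and Tgfb2 also passed the interaction, by 3.16 ± 0.33 (adjusted p = 0.000604) and 1.10 ± 0.21 (adjusted p = 0.026) in edgeR's quasi-likelihood test. With the clock score in the fit, 1 gene of all tested passed the interaction, so Ccn2 and Tgfb2 did not both pass. Tgfb2 no longer passed it when control sham replicate 3 or 4 or Trbp-cKO sham replicate 2, 3 or 4 was left out. In the sham comparison edgeR's quasi-likelihood test called Ccn2, which was lower in Trbp-cKO hearts with a log2 change of -1.25 ± 0.23 (adjusted p = 0.0143), and edgeR's exact test and DESeq2 called Ccn2 and Ltbp2. The quasi-likelihood call of Ccn2 was lost with the clock score in the fit, where no tested gene was called between the sham groups.

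**Figure D5:**
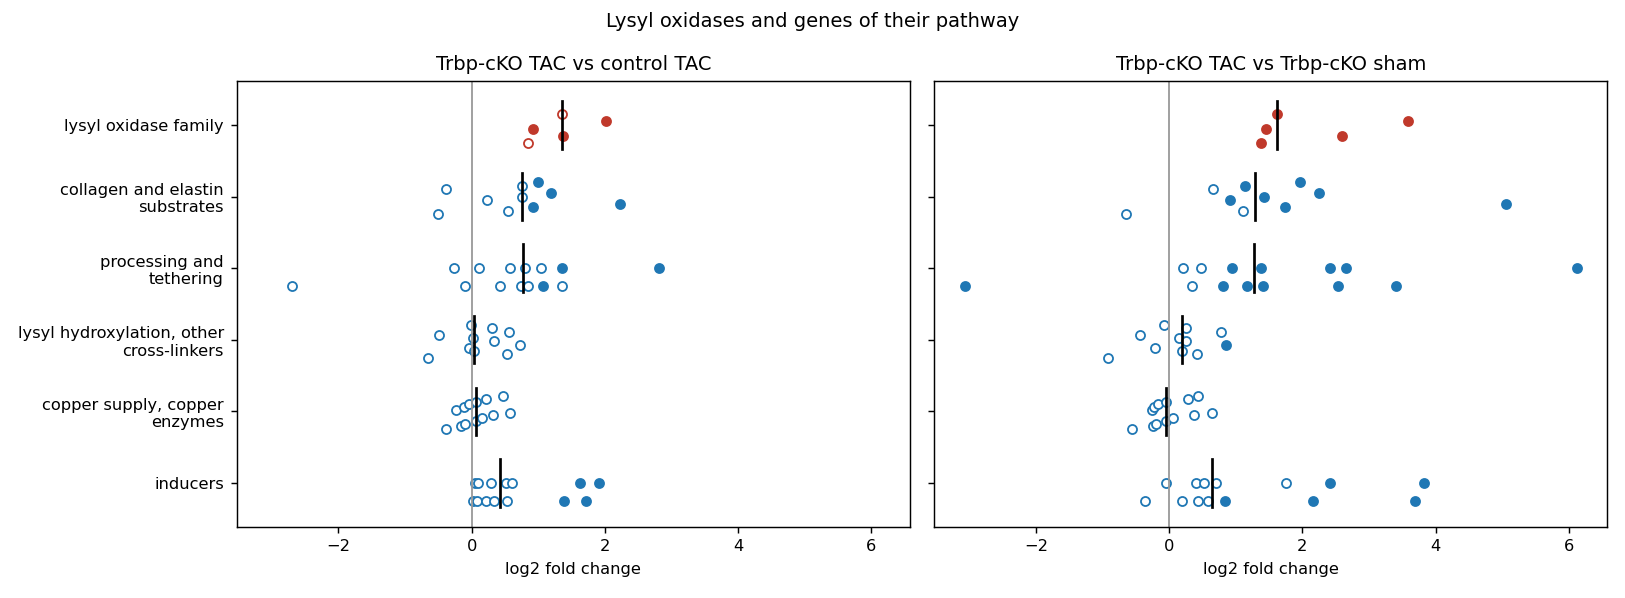
Log2 fold changes of the family (red) and of the 5 pathway lists (blue) for Trbp-cKO TAC against control TAC (left) and Trbp-cKO TAC against Trbp-cKO sham (right). Each point is a gene, filled where both thresholds were passed, and black lines are list medians. The left medians are 1.36 for the family, 0.76 for the substrates, 0.03 for the list of lysyl hydroxylation and other cross-linking genes and 0.07 for copper genes.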

How the data were processed

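RNA of 16 ventricles, 4 per group, was sequenced by the authors as paired reads of 150 bases. Per the labels and the methods, reads were trimmed with cutadapt 2.3, aligned to GRCm38 with HISAT2 2.1.0 and assembled into abundances with StringTie 1.3.4. The deposited values are raw counts per gene, unfiltered and not normalized; they derive from coverage and an assumed read length that was not given in the sources used here, so a fit of counts divided by 2 was among the alternatives.

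The analysis used edgeR 4.0.16 (R 4.3.3): default filter on low counts, TMM scaling, a robust quasi-likelihood fit of the 4 groups over all 16 hearts, and Benjamini-Hochberg adjustment over 19955 genes. Calls needed an adjusted p no higher than 0.05 and a log2 fold change no smaller than 0.8 in size. The SE is the log2 fold change divided by the square root of F. Exact permutation tests of CPM used all 70 assignments of 8 hearts and were two-sided. DESeq2 1.42.0 and other settings were alternatives. The procedure was tested on simulated counts. Genes named were the members, Tarbp2, called genes of the lists, and the 3 most correlated genes per member; Bmp1, the cross-linking genes, Atp7a, Slc31a1, Cp, Sod3, Myl4, Tgfb1, Dbp and the overlapping genes were added after their values were seen. The members and lists were chosen with earlier results of these data known. Ctgf of the inducer list was matched as Ccn2. The clock score is the mean standardized level of 4 circadian genes less that of 9 in opposite phase. Replicates were separate hearts.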

Additional observations from a re-analysis of the deposited data

Results flagged for a closer look

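In Trbp-cKO TAC replicate 4, Lox had 125 CPM, and the next highest heart of the group had 38.8 CPM. The gap between them was 0.889 of the group's range, above Dixon's 95% critical value for 4 samples. Loxl3 had 136 CPM in the same heart and 41.6 CPM in the next, a gap of 0.869 of the range. Of 20 groups of 4 hearts tested for the 5 members these 2 exceeded the limit, and chance exceeds it in about 1 group in 20. The 2 are not independent, since they are the same heart and the deviations of Lox and Loxl3 correlated at r = 0.963. They cannot be set against this rate as separate groups. The rule was applied to CPM. On the log2 scale this heart had 6.97 for Lox and 7.09 for Loxl3, and the next highest had 5.28 and 5.38. The means without this heart were 32.7 CPM for Lox and 35.9 CPM for Loxl3.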

How the results depend on the processing

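Of 740 values of the members under alternative settings, 689 kept their direction and their side of the thresholds, 19 lost a call, 24 gained one and 8 changed sign. For control TAC against control sham the count of members called was 0, and it was 1 with no threshold on the fold change, with a filter of 1 CPM in 4 hearts, with halved counts and with DESeq2, 2 with edgeR's exact test, and 0 to 2 with a heart left out. For Trbp-cKO sham against control sham it was 0, and 1 with scaling by library size only. For Trbp-cKO TAC against control TAC it was 3, and 5 with scaling by library size only, with DESeq2 and without both replicates 1 and 2 of control TAC, 1 with the replicate block, 1 in a fit of only the 2 groups, and 1 to 4 with a heart left out. In this comparison it was 4, with Loxl1 added, with halved counts and without robust estimation. It was 2 with the clock score, a fold threshold of 1 or edgeR's exact test. For Trbp-cKO TAC against Trbp-cKO sham it was 5, and 1, Loxl4, with the clock score as a covariate, a fit in which genes called over all tested fell in number from 1112 to 379. For the interaction it was 0, and 1, Lox, with DESeq2 and without both of these hearts. The replicate numbers did not pair the hearts: deviations of same-numbered hearts correlated at -0.427 to 0.21, and the block altered no other count of members called. The cause of these differences was not tested.

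Values that changed sign were small in most cases. For Trbp-cKO sham against control sham, Loxl1 ran from -0.01 to 0.14 and Loxl2 from -0.05 to 0.12 with a heart left out. Loxl1 was -0.00073 without control sham replicate 2 and -0.01 without Trbp-cKO sham replicate 3. Loxl2 was -0.01 and -0.05 without these hearts and -0.02 without Trbp-cKO sham replicate 4. With the clock score, Lox was 0.96 there (adjusted p = 0.728), and the interaction was -0.004 for Loxl1 and -0.92 for Loxl3 (adjusted p = 0.692). Loxl4 rests on 32 to 188 counts per heart, so its levels carry more counting error than those of the other members.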
